A study of Homo sapiens with 16 samples.

Results

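The glycolysis and hypoxia genes are 35 genes that cover glucose uptake, the enzymes from hexokinase to lactate dehydrogenase, lactate export, kinases that steer the pathway, targets of the hypoxia response and its transcription factors. Members were chosen by gene symbol, as rows of the count table having the symbol among their semicolon-separated names, and 35 of 35 were found among 27043 gene rows, of which 13641 held a count. The data are 603 single cells from the neuroblastoma line SK-N-AS, which derives from a human tumour of the sympathetic nervous lineage. The cells were sorted into plate wells and measured with MARS-seq, a 3' single-cell RNA method. The cells were untreated, so the series holds no group treated with hypoxia. They were grown in serum-containing RPMI1640 medium at ordinary cell culture CO2, and the oxygen level at the cells is not known here. The labels describe 16 samples, but the columns carry barcodes that show no sample, so all cells were treated as 1 sample with no replicate, and no test and no p-value was possible.

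Glycolysis splits glucose into pyruvate in the cytosol, and lactate dehydrogenase turns pyruvate into lactate, which monocarboxylate transporters export. Most steps can be served by several paralogous genes that differ in tissue and regulation. Under low oxygen the factors HIF1A and EPAS1 are no longer degraded and raise glucose transporters, many of the enzymes themselves, and targets such as VEGFA and BNIP3, so the enzymes and the dedicated hypoxia targets share a regulator.

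Levels are given as CPM, a gene's share of all counts on the usual CPM scale, because a 3' method counts the end of a transcript and its counts do not grow with transcript length. Differences between genes in capture and mapping were not corrected. Intervals are exact at 95% (Poisson for CPM, Clopper-Pearson for shares, conditional binomial for ratios). They hold counting error alone and leave out the spread among plates or cultures. Cells held 1000 to 42404 counts with a median of 2106. Of the 364 barcodes, 239 occur in both of 2 runs of columns, called barcode set 1 (316 cells) and set 2 (287 cells), which served as a check. Most defining markers of other tissues had no count: 7 of 8 Schwann cell, 5 of 7 endothelial, 4 of 8 immune and 6 of 6 erythroid markers were at 0. Of the immune markers CD68 stood at 54.6 CPM and PTPRC, the general leukocyte marker, at 18.9 CPM with a count in 4.15% of cells. The mesenchymal filament gene VIM (5649 CPM) and the sympathetic factor HAND2 (273 CPM) were present.

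Promoter windows were searched for the short core of the hypoxia response element, which the hypoxia factors are known to bind. It was read as ACGTG or GCGTG on both strands in windows from 250 bases before to 50 after the start of each gene (RefSeq, GRCh38.p14), with overlapping matches counted separately, so that CACGTG counts as 2. SLC2A3, SLC16A1, VEGFA, BNIP3L and NDRG1 were not matched to a window. Of the 30 other members, 21 held a match (70%), as did 48.4% of 35116 windows in the genome. The members' windows had a median GC content of 70%, against 58.7% over all windows. Among core enzymes 12 of 17 held a match, and among hypoxia targets 3 of 5. The windows below are those of the lactate dehydrogenase pair, whose transcripts are contrasted further on, and of an enzyme and a hypoxia target with several matches, with matches in capitals. They lie at chr11:18394313-18394612 (plus strand) for LDHA, chr12:21657793-21658092 (minus strand) for LDHB, chrX:78103998-78104297 (plus strand) for PGK1 and chr10:131981874-131982173 (minus strand) for BNIP3.
LDHA: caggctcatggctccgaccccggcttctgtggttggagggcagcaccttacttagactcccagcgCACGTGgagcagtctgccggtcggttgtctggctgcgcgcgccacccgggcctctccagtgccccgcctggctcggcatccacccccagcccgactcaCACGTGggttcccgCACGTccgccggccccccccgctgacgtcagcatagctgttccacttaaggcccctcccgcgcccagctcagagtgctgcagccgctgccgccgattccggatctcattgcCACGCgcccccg
LDHB: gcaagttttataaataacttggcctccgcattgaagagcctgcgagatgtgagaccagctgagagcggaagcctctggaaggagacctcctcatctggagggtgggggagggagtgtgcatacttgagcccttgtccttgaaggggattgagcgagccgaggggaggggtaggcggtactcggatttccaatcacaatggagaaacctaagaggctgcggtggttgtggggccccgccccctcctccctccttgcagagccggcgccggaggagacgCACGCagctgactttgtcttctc
PGK1: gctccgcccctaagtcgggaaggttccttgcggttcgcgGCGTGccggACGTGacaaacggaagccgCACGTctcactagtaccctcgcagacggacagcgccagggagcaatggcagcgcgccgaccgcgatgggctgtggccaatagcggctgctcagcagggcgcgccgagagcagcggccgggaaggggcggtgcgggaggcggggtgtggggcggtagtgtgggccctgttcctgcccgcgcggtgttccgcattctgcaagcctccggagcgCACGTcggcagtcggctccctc
BNIP3: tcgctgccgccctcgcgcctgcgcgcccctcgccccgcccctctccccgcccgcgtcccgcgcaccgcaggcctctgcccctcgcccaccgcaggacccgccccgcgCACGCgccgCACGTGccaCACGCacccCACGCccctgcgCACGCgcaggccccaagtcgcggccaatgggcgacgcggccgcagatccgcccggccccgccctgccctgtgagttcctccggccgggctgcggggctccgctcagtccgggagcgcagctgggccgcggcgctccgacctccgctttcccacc
LDHA held 6 matches and LDHB 1, PGK1 held 4 and BNIP3 6. A match describes letters and is neither a bound site nor a cause of any level below.

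The members fell into abundant enzymes and scarce hypoxia targets. The 17 core enzymes, lactate dehydrogenases included, held 23367 counts, or 15197 CPM (1.52% of all counts), and their median member stood at 425 CPM. The 8 hypoxia targets together held 279 counts, 181 CPM, with a median member at 19.8 CPM. The median over all 13641 genes with a count was 14.96 CPM. On the log2(CPM + 1) scale the medians were 8.74 for the enzymes, 4.33 for the hypoxia targets and 4.00 for all genes with a count, so the hypoxia targets lay near the middle of the expressed genes. At least 50 counts were reached by 15 of 17 enzymes and 3 of 8 hypoxia targets, and by 22 of the 35 members, against 34% of all genes with a count.

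**Figure D1:**
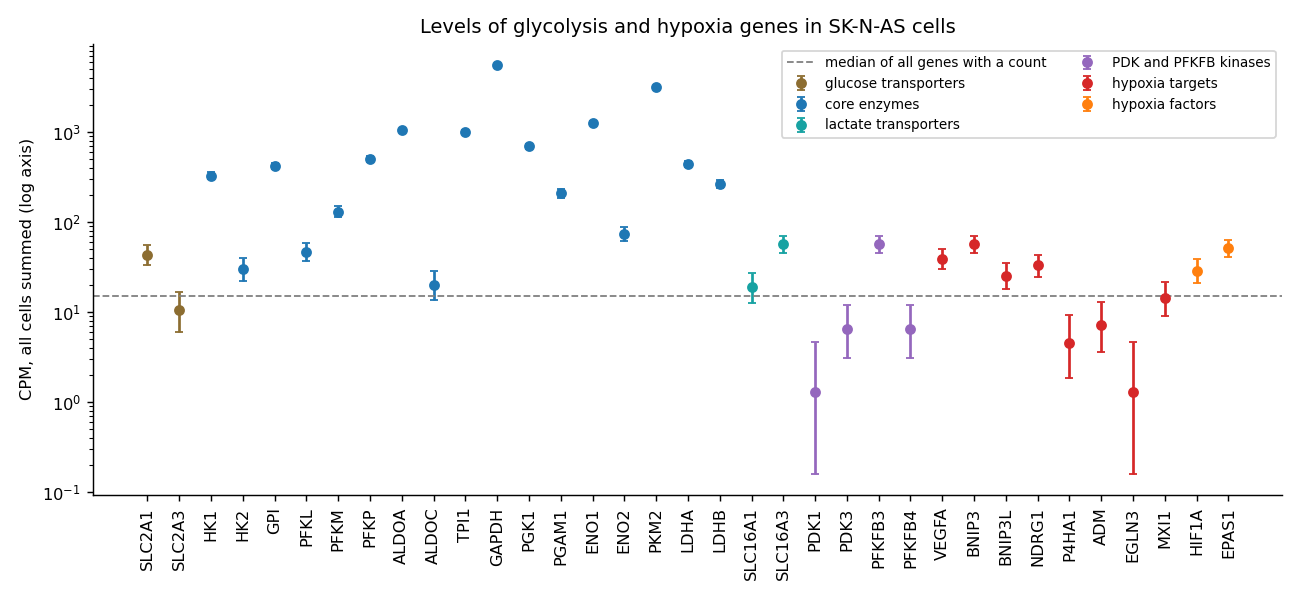
Levels of the 35 members as CPM over all cells summed, on a log axis, with exact 95% Poisson intervals, coloured by role; the dashed line marks the median of all genes with a count. GAPDH at 5537 CPM and PKM2 at 3163 CPM lead, and most hypoxia targets sit within 10-fold of the dashed line.

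GAPDH, the dehydrogenase in the middle of the pathway, stood at 5537 CPM (5420 to 5656), with 5437 CPM in barcode set 1 and 5641 CPM in set 2. PKM2, as the file names the pyruvate kinase gene PKM, followed at 3163 CPM (3074 to 3253), and this row cannot tell the M1 from the M2 splice form. Together these genes gave 57.2% of the enzyme counts. ENO1, the ubiquitous enolase, stood at 1269.5 CPM, the aldolase ALDOA at 1045 CPM, the triosephosphate isomerase TPI1 at 1009 CPM and the phosphoglycerate kinase PGK1 at 698 CPM. The mutase PGAM1 stood at 209 CPM (187 to 233), with 321 of the 322 counts of its step. GAPDH, PKM2, PGAM1, ENO1, TPI1, PGK1, ALDOA and the lactate dehydrogenases have pseudogene or close paralog copies, so how reads were shared is uncertain, and the GAPDH, VEGFA, BNIP3 and NDRG1 rows each join another transcript name.

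To compare cells at equal depth, each of the 560 cells with enough counts was thinned at random to 1100, and 43 cells below that were not used. GAPDH had between 0 and 16 counts per thinned cell, with a median of 6, and a count in 99.8% of cells. PKM2 had 0 to 14 with a median of 3, and ENO1 0 to 7 with a median of 1. All 17 enzymes together gave 3 to 33 counts per cell with a median of 17. Of the 11 enzyme steps from hexokinase to lactate dehydrogenase, the median cell had a count for 6, and 1 cell had a count for all 11. Sampling at this depth leaves most steps at 0 in many cells: a count was seen in 19.1% of cells for the mutase step and in 33.0% for hexokinase. The summed enzyme counts in a thinned cell were almost unrelated to the cell's total before thinning (Spearman rho = -0.039 over 560 cells).

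Most steps were served mainly by 1 paralog. HK1, the housekeeping hexokinase, took 91.1% of 553 hexokinase counts (88.5 to 93.4), and HK2, the inducible form typical of tumours and muscle, took 8.32% (6.15 to 10.9). HK1 thus stood at 328 CPM and HK2 at 29.9 CPM (21.9 to 39.9). HK3 had 0 counts and HKDC1 1. At the phosphofructokinase step, which commits glucose to glycolysis, the platelet-type gene PFKP took 74.0% (71.3 to 76.7), the muscle-type PFKM 19.1% (16.8 to 21.6) and the liver-type PFKL 6.85% (5.40 to 8.55). All 3 subunits were therefore measured, in an order whose intervals do not overlap.

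**Figure D2:**
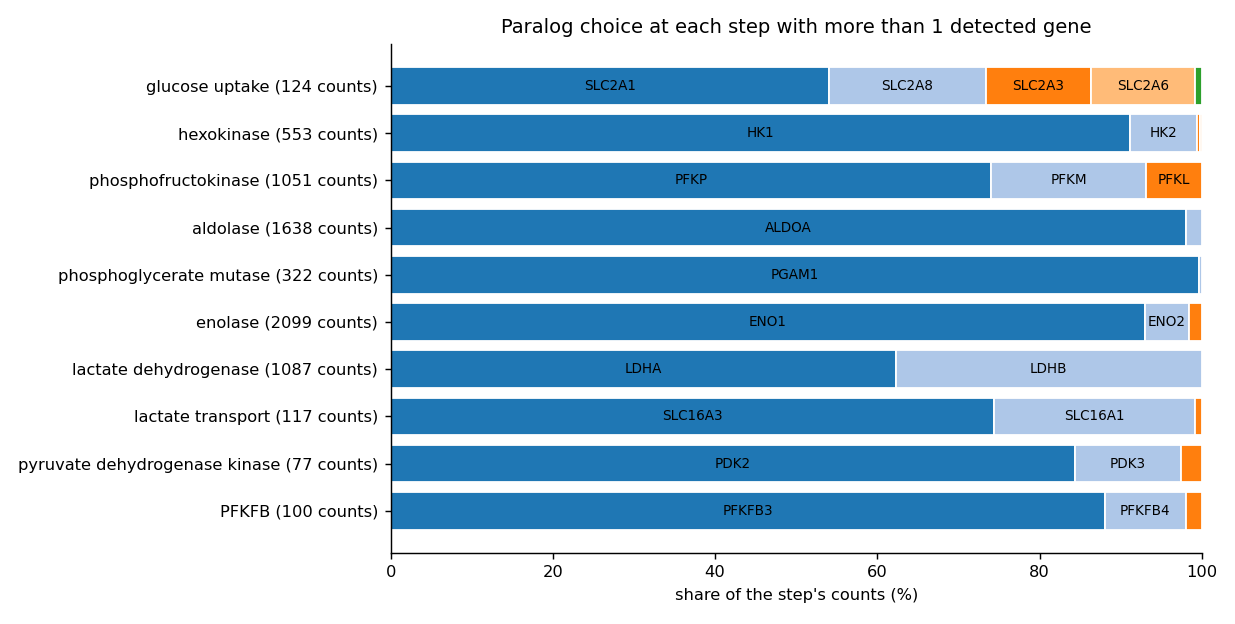
Share of the counts of each step taken by each detected paralog, for steps with more than 1 detected gene, with the step's counts in brackets; segments under 5% carry no name. HK1 (91.1%), ALDOA (98.1%) and ENO1 (93.0%) lead their steps, while lactate dehydrogenase is shared at 62.3% LDHA and 37.7% LDHB.

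At the aldolase step ALDOA took 98.1% of 1638 counts (97.3 to 98.7), and ALDOC, the brain-type aldolase and a known HIF target, took 1.89% (1.29 to 2.68). The ALDOC counts lay unevenly, at 10.2 CPM in barcode set 1 (4.39 to 20.05) and 30.6 CPM in set 2 (19.4 to 45.9). ENO1 took 93.0% of 2099 enolase counts (91.8 to 94.1). ENO2, the neuron-specific enolase used clinically as a marker of neuroblastoma, took 5.43% (4.50 to 6.49) at 74.1 CPM and a count in 15.3% of cells, and the muscle form ENO3 took 1.57%. GAPDHS, PGK2, PKLR and PGAM4 had 0 counts, each of which allows up to 1.95 CPM by a limit of 3 counts over all cells, and up to 2.40 CPM by the 2-sided Poisson interval used elsewhere. PGAM2 had 1.

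Among the enzyme steps lactate dehydrogenase had the most even split. LDHA, whose subunit favours lactate production, took 62.3% of 1087 counts (59.3 to 65.2) and LDHB, whose subunit favours the reverse reaction, 37.7%. The LDHA share was 65.4% in barcode set 1 and 59.2% in set 2, and 64.2% with every cell given equal weight. In thinned cells 45 had both genes, 148 LDHA only, 72 LDHB only and 295 neither, so the split could not be read cell by cell.

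The transporters were scarce against the enzymes. SLC2A1, the ubiquitous glucose transporter GLUT1, stood at 43.6 CPM (33.8 to 55.3) and SLC2A3, the high-affinity neuronal transporter, at 10.4 CPM (5.95 to 16.9). SLC2A1 took 54.0% of the counts of the glucose transporter family (44.9 to 63.0) and SLC2A3 12.9%, while SLC2A8, an intracellular transporter outside the members, took 19.4%. Of the lactate transporters, SLC16A3, the exporter MCT4 of glycolytic cells and a HIF target, took 74.4% (65.5 to 82.0) at 56.6 CPM, and SLC16A1, which encodes MCT1, took 24.8% at 18.9 CPM (12.6 to 27.1). BSG, the partner that carries both to the membrane, was higher than either at 288 CPM.

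Of the kinases that direct the pathway, PFKFB3, which makes the activator of phosphofructokinase, stood at 57.2 CPM (45.9 to 70.5) and took 88% of its family's 100 counts (80.0 to 93.6), and PFKFB4 stood at 6.50 CPM. The pyruvate dehydrogenase kinases hold pyruvate back from the mitochondrion. PDK1, the hypoxia-induced form, had 2 counts (1.30 CPM, 0.158 to 4.70) and PDK3 had 10 (6.50 CPM). The family's counts lay mostly with PDK2, which is no member, at 84.4% of 77 counts (74.4 to 91.7), and PDK4 had 0.

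Over all cells the highest hypoxia targets were BNIP3, VEGFA, NDRG1 and BNIP3L. BNIP3, which drives mitophagy, stood at 56.6 CPM (45.3 to 69.8), VEGFA, the angiogenic growth factor, at 39.0 CPM (29.8 to 50.2), NDRG1, a stress-induced gene, at 33.2 CPM (24.7 to 43.6) and BNIP3L, a close relative of BNIP3, at 25.4 CPM (18.0 to 34.7). Neighbours in this order overlap in their intervals, and BNIP3 and BNIP3L do not. MXI1, an antagonist of MYC, stood at 14.3 CPM, the peptide ADM at 7.15 CPM and P4HA1, a collagen prolyl hydroxylase, at 4.55 CPM. EGLN3, the oxygen sensor that is itself induced by HIF, had 2 counts (1.30 CPM, 0.158 to 4.70), in 1 cell. The factors HIF1A and EPAS1 stood at 28.6 CPM (20.8 to 38.4) and 51.4 CPM (40.7 to 64.0), though HIF activity is set by protein stability, which RNA does not show. VEGFA was at 49.6 CPM in barcode set 1 and 28.0 CPM in set 2, where it was below NDRG1 (31.9 CPM).

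Other genes of the hypoxia response and the pathway's branches were read from wider lists. Of 49 other hypoxia genes found in the table (51 listed) 14 reached 50 counts and 8 had 0, among them CA9, a widely used hypoxia marker, and the lysyl oxidase gene LOX. Among the highest were MIF (1779 CPM), a cytokine, NRN1 (259 CPM) and PLOD1 (137 CPM), and the list's median was 9.76 CPM. Among 33 of 35 listed genes of the branches that were found 17 reached 50 counts, among them TKT at 307 CPM, TALDO1 at 276 CPM and BRP44, a subunit of the mitochondrial pyruvate carrier now named MPC2, at 256 CPM. Of all 27043 gene rows, those at 0 included, 4638 reached 50 counts.

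Counts of hypoxia targets were spread thinly over cells. At equal depth 463 of 560 cells (82.7%) had 0 counts of the 8 targets, 85 had 1 and 12 had 2, which was the most. The variance of the summed count (0.200) was close to its mean (0.195) and to the sum of the variances of the 8 genes (0.198). The 97 cells with a count at that depth were set against the 463 with none, at median totals of 2263 and 2207. Full counts were compared, and in these a cell with none at equal depth can still hold a target count. Core enzymes stood at 14864 CPM in cells with a target count and 15276 CPM in cells with none (log2 ratio -0.039, -0.090 to 0.011), and the enzymes without GAPDH at -0.080 (-0.14 to -0.016). The G2/M list stood at -0.24 (-0.30 to -0.17) and the G1/S list at -0.21 (-0.32 to -0.11). With another random thinning these were -0.020 for the enzymes without GAPDH, 0.010 for G2/M and -0.085 for G1/S, and with cells thinned to 750 counts the G1/S list was at 0.025. Of 19 other members of at least 50 counts, 1 was higher by at least 1.5-fold (EPAS1, 78.6 CPM against 46.8 CPM) and 1 was lower (LDHB, 169 CPM against 290.0 CPM), where 6% of 4635 genes were higher and 9.58% lower. The log2 ratio was 0.75 for EPAS1 (-0.065 to 1.501) and -0.78 for LDHB (-1.27 to -0.32). LDHB was below 0 in each of 7 other settings, from -0.23 with another random thinning to -1.20 without cells holding an INS-IGF2 count, and EPAS1 stood at 0.014 within barcode set 2.

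The core enzymes covaried weakly from cell to cell. Over the 13 enzymes with a mean of at least 0.1 per thinned cell, the 78 pairs had a mean Spearman rho of 0.015 and 66.7% of pairs lay above 0, while the 2166321 pairs of all 2082 such genes had a mean of -2.9e-05 with 49.1% above 0. The G2/M genes, a list known to move together, had 0.099 and 89.7%, and the G1/S genes 0.040 and 72.5%. The mesenchymal list had the same mean as the enzymes, 0.015, with 54.2% above 0, and the respiratory chain list had 0.0029 and 51.6%. Pairs were not matched for abundance. The highest enzyme pairs were GAPDH with PKM2 (0.15), ENO1 with PKM2 (0.13) and ALDOA with GAPDH (0.096), and the lowest was PFKM with PKM2 (-0.098). These are correlations in sparse counts over 560 cells of shared plates and are weak. The mean was 0.015 in barcode set 1 and 0.0041 in set 2. The variance of the summed enzyme count was 27.5, against 20.9 for the sum of the single variances.

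Each enzyme was also measured in the 186 cells richest and the 186 poorest in the other 16 enzymes, a grouping that leaves the gene itself out. PKM2 was at 3519 CPM in rich and 2738 CPM in poor cells, a log2 ratio of 0.36 (0.26 to 0.47), and GAPDH at 5854 CPM and 5072 CPM (0.21, 0.13 to 0.29). ALDOA (0.33, 0.15 to 0.51), ENO1 (0.31, 0.14 to 0.47) and TPI1 (0.22, 0.036 to 0.40) were likewise higher beyond counting error. ENO2 stood at 98.4 CPM against 46.3 CPM (1.09, 0.34 to 1.87), on 45 and 24 counts, but at 0.20 with cells thinned to 750 counts and 0.19 with cells of at least 1500. PFKP (0.010, -0.25 to 0.27) and PFKM (0.0012, -0.52 to 0.52) did not differ beyond counting error, at intervals that allow modest differences. With GAPDH also left out of the grouping, PKM2 stood at 0.26 (0.16 to 0.37), ENO1 at 0.31 (0.15 to 0.48), ENO2 at 1.01 (0.28 to 1.78) and ALDOA at 0.17 (-0.012 to 0.35).

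**Figure D3:**
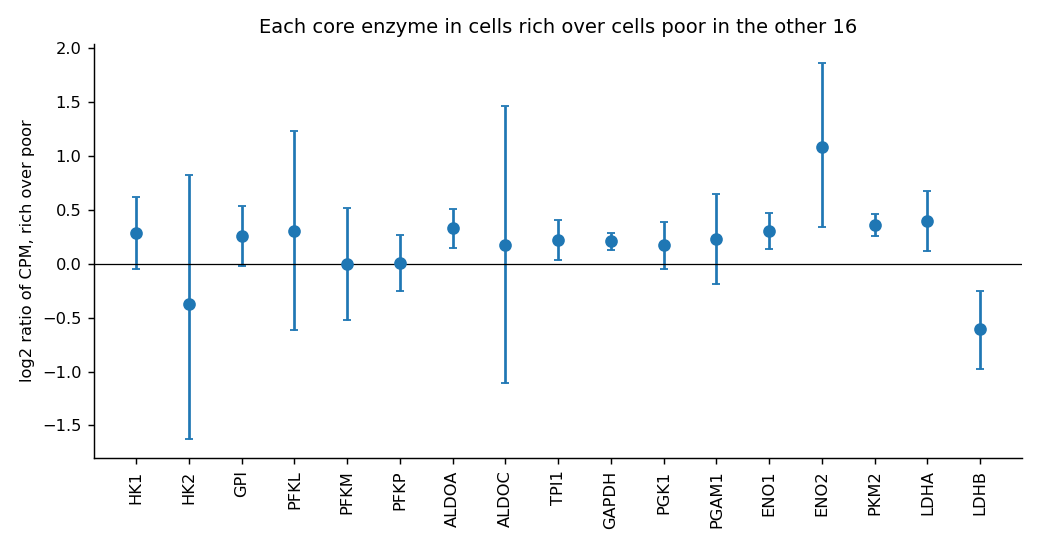
Log2 ratio of CPM for each of the 17 core enzymes in the 186 cells richest over the 186 poorest in the other 16, with exact 95% conditional binomial intervals. PKM2, ALDOA, ENO1 and ENO2 lie above 0 and LDHB lies below at -0.61.

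LDHB lay on the other side, but not stably. It was at 225 CPM in cells rich in the other enzymes and 343 CPM in poor cells, a log2 ratio of -0.61 (-0.98 to -0.25), while LDHA was at 507 CPM and 386 CPM (0.39, 0.12 to 0.68). With cells grouped by the enzymes other than the LDH pair, the LDHA share of the step was 68.8% in rich cells (63.5 to 73.8) and 52.2% in poor cells (47.1 to 57.4). It was 70.1% against 55.4% in barcode set 1 and 67.3% against 48.6% in set 2. Without the cells holding an INS-IGF2 count, described below, it was 62.7% in rich and 57.8% in poor cells, LDHB stood at -0.10 and LDHA at 0.15. With GAPDH also left out of the grouping LDHB stood at -0.27 (-0.66 to 0.12) and LDHA at 0.49 (0.21 to 0.78), and with cells of at least 1500 counts LDHB stood at -0.14. With groups formed within set 2 alone LDHA stood at -0.26 and LDHB at -0.91.

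The relation to the summed G2/M and G1/S lists was small. Of the G2/M list's 9949 CPM, HN1 held 1485 CPM, HMGB2 1454 CPM and TUBB4B 1052 CPM. These genes had a count in 89.1%, 77.4% and 74.1% of cells, and the ranking was not run without them. In the 186 cells richest in G2/M transcripts the enzymes summed to a median of 16 counts per thinned cell, against 16.5 in the 186 poorest, and the log2 ratio of the summed CPM was -0.037 (-0.084 to 0.0097), with -0.099 in the cells of barcode set 1 and 0.030 in those of set 2. Of 22 members of at least 50 counts, 0 were higher and 1 lower by 1.5-fold, SLC16A3 at -0.75 (-1.69 to 0.16), where 11.2% of 4589 genes were higher and 8.61% lower. Below that fold, ENO1 stood at 1374 CPM against 1062 CPM (0.37, 0.20 to 0.54), and was higher in both barcode sets (0.57 and 0.16). GAPDH was at 5193 CPM against 5741 CPM (-0.14, -0.22 to -0.067). PGK1 was at 619 CPM against 767 CPM (-0.31, -0.53 to -0.088), but at 0.044 with groups formed within barcode set 2.

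In cells rich in G1/S transcripts, a reading of DNA replication, the enzymes summed to a log2 ratio of 0.030 (-0.017 to 0.076) over cells poor in them, with -0.075 in the cells of barcode set 1 and 0.14 in those of set 2. Of the 22 members LDHB alone was higher by 1.5-fold, at 315 CPM against 187 CPM (0.75, 0.36 to 1.14), with 0.63 in the cells of barcode set 1 and 0.76 in those of set 2. It was above 0 in every setting run, from 0.27 with a split at the median to 0.88 without the deepest cell. The LDHA share was 59.4% in G1/S rich cells (54.4 to 64.3) and 68.3% in poor cells (62.3 to 73.8). The 3 members lower by 1.5-fold were the hypoxia targets VEGFA (-0.88, -1.88 to 0.070), NDRG1 (-1.09, -2.53 to 0.24) and BNIP3 (-0.68, -1.50 to 0.11). Each rests on 8 to 34 counts a group and has an interval that includes 0. The 8 targets together held 76 counts in rich and 96 in poor cells (-0.52, -0.97 to -0.070). Their ratio was -0.27 in the cells of barcode set 1 and -0.80 in those of set 2, and was not run with another thinning. The G1/S list between cells with and without a target count, given above, did not hold under other thinnings. Of 4604 genes 9.38% were higher and 8.12% lower by that fold.

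**Figure D4:**
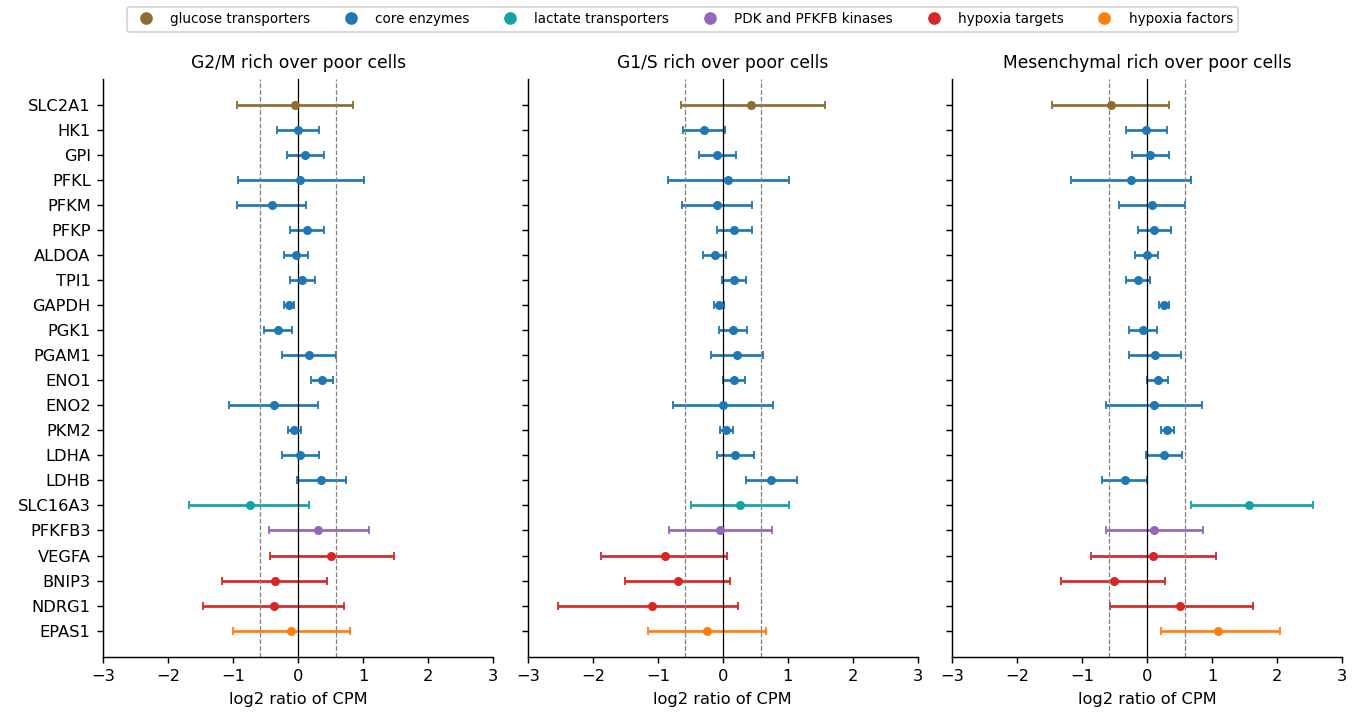
Log2 ratios of CPM for the 22 members of at least 50 counts, in the 186 cells richest over the 186 poorest in G2/M, G1/S and mesenchymal transcripts, with exact 95% conditional binomial intervals; dashed lines mark 1.5-fold. Most enzymes lie near 0, LDHB is at 0.75 by G1/S, and SLC16A3 (1.56) and EPAS1 (1.09) are highest by mesenchymal genes.

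Cells with more summed counts of the mesenchymal list, genes of the mesenchymal state of neuroblastoma lines, had somewhat higher enzymes. This list leans on its abundant genes, with VIM at 5649 CPM and S100A6 at 5303 CPM of a summed 22236 CPM, and ZEB1 at 41.0 CPM. In the 186 cells richest in its transcripts the enzymes had a median of 17 counts per thinned cell, against 15 in the 186 poorest, and a log2 ratio of 0.16 (0.11 to 0.21), with 0.18 and 0.15 within barcode sets 1 and 2. Other lists differed more in the same cells, the adrenergic list by -0.42 (-0.52 to -0.32), G2/M by -0.28 (-0.34 to -0.22) and G1/S by -0.19 (-0.28 to -0.094), and their part in the enzyme ratio was not tested. PKM2 was at 3470 CPM against 2809 CPM (0.30, 0.20 to 0.41) and GAPDH at 5857 CPM against 4928 CPM (0.25, 0.17 to 0.33). Without these genes the other 15 enzymes stood at 0.017 (-0.053 to 0.087), so the sum moved with this pair. The members higher by 1.5-fold were SLC16A3, at 85.3 CPM against 28.8 CPM (1.56, 0.67 to 2.54), and EPAS1, at 70.1 CPM against 33.0 CPM (1.09, 0.21 to 2.03). That is 2 of 22, where 8.72% of 4612 genes were higher, and 0 of 22 were lower, where 9.28% were. SLC16A3 rested on 45 and 14 counts and stood at 0.65 without INS-IGF2 cells, EPAS1 rested on 37 and 16 counts and stood at 0.12 without them.

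Cells were also grouped by the enzymes themselves, which rests on the same cells and counts as the grouping by mesenchymal genes. Between the 186 cells with at least 18 enzyme counts and the 186 with at most 14, the mesenchymal list had a log2 ratio of 0.18 (0.15 to 0.22), with CD44 at 0.75, FOSL1 at 0.53, THY1 at 0.46 and AXL at 0.42 as its highest genes and DCN (-1.59), ZEB1 (-1.56), CDH11 (-0.82) and FN1 (-0.74) as its lowest. Of its 26 genes of at least 50 counts 1 was higher and 7 were lower by 1.5-fold, with a median gene ratio of 0.086, so the sum and the tally point opposite ways. The abundant S100A6, at 5929 CPM in rich and 4479 CPM in poor cells (0.40, 0.32 to 0.49), took a large share of the sum. With groups formed within barcode set 2, S100A6 stood at 0.16, CD44 at 0.19 and AXL at 0.057. CD44 was at 0.25 with cells of at least 1500 counts, and AXL at 0.070 with cells thinned to 750. The 8 hypoxia targets did not differ detectably (87 counts in rich and 98 in poor cells, 0.0056, -0.43 to 0.44). Of the 7 members outside the enzymes with at least 50 counts 0 passed 1.5-fold in either direction, where 7.14% of 4623 genes were higher and 10.1% lower. The wider list of 49 other hypoxia genes summed to -0.37 (-0.47 to -0.28), with -0.46 and -0.26 in the cells of barcode sets 1 and 2. Its median gene ratio was 0.025, and of its 14 genes of at least 50 counts 1 was higher and 2 were lower by 1.5-fold. MIF held 1779 of that list's 3588 CPM over all cells, and its part in the sum was not tested. The G1/S list stood at 0.10 (0.010 to 0.20), with UHRF1 (0.74) highest and RPA2 (-0.72) lowest. The G2/M list stood at -0.091 (-0.15 to -0.033), with CTCF (-1.18), PSRC1 (-1.05) and PTTG1 (-0.97) lowest, and both lists changed sign under other settings. The respiratory chain list stood at 0.0010 (-0.028 to 0.030).

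The genes most like the summed enzymes over the 560 thinned cells, among 2069 others, were led by S100 calcium-binding genes. The highest Spearman rho was that of S100A4 (0.24, with 0.22 and 0.27 within barcode sets 1 and 2), followed by S100A16 (0.22), TMEM14B (0.18), HINT1 (0.17), TGM2 (0.17), TIMM17B (0.17), PSME2, SH3BGRL3, LMNA and S100A10 (0.16 each). The lowest were those of the INS-IGF2 and INS joint row (-0.20), ZNFX1-AS1 (-0.18), PTN (-0.18), RPL23 (-0.17) and PCOLCE (-0.17). The median over all genes was near 0 (-2.1e-04).

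The INS-IGF2 row, a peptide hormone gene with a count in 139 cells, was looked at further because it had the lowest rho, so its direction was fixed by that choice. Cells with a count made up 33 of the 186 enzyme-rich cells and 62 of the 186 enzyme-poor ones. In the 59 cells with at least 3 such counts, a cut chosen after the values were seen, the enzymes stood at 11671 CPM, against 15678.5 CPM in the 464 cells with none (-0.43, -0.49 to -0.36). Per thinned cell that was 3 to 27 counts with a median of 12 in 57 cells, against 5 to 33 with a median of 17 in 431 cells, so the groups overlap widely. PKM2 (-0.62), ENO1 (-0.55), GAPDH (-0.49) and LDHA (-0.93, -1.43 to -0.47) were lower in these cells, while LDHB (-0.084, -0.58 to 0.38) and PGK1 (-0.028, -0.32 to 0.26) did not differ detectably. MIF was higher (1.48) and S100A4 lower (-1.41). Set against the same 464 cells, all 139 cells with any count showed smaller ratios, of -0.19 for the summed enzymes, -0.32 for PKM2, -0.31 for ENO1, -0.25 for GAPDH and -0.30 for LDHA (-0.58 to -0.036). The INS-IGF2 row itself took 0.688% of the counts in cells with at least 3 INS-IGF2 counts, and 0.324% in cells with any. The groups were cut on full counts, and their depth differed. Median totals were 2442 in the 59 cells, 2347 in the 139 and 2078.5 in the 464.

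**Figure D5:**
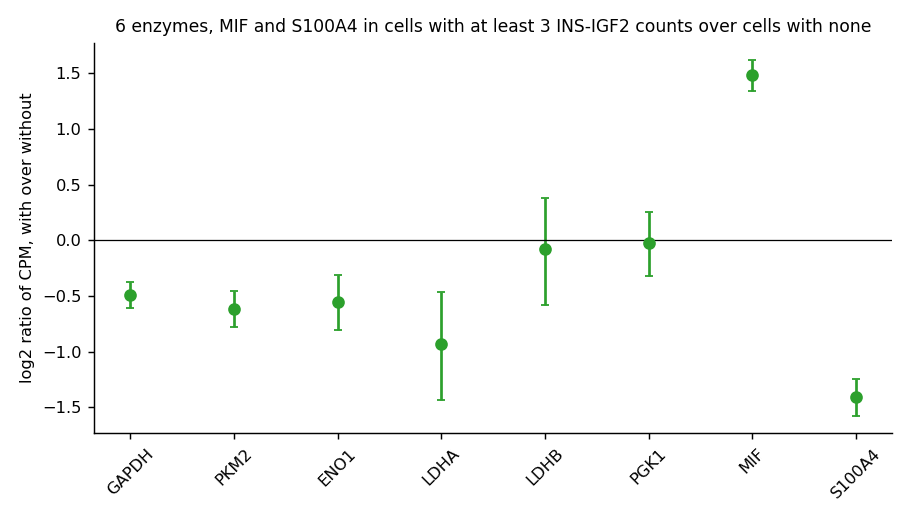
Log2 ratio of CPM in the 59 cells with at least 3 INS-IGF2 counts over the 464 cells with none, with exact 95% conditional binomial intervals that cover counting error only. LDHA (-0.93), PKM2, ENO1 and GAPDH lie below 0 and LDHB and PGK1 near it, while MIF lies above at 1.48.

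Several relations were smaller without these cells. Because the INS-IGF2 row was chosen for its low rho with the enzymes, leaving its cells out can by itself shrink relations to the enzymes. How much of the change follows from that choice was not tested. Without the 139 cells the mesenchymal list stood at 0.076 between enzyme-rich and enzyme-poor cells, and the adrenergic list, genes of the other state of neuroblastoma lines, at -0.063 where it was -0.46 (-0.57 to -0.35) with them. DCN then stood at 0.15 and CHGA, a granin with 193 counts in 5.47% of all cells, at 0.88 (-4.69 with them). Neither 0.15 nor 0.88 carries an interval here. Levels also varied with position in the table, and the part of this in the other results was not tested beyond the values given here. Over 30 runs of 20 neighbouring columns the summed enzymes ranged from 13367 to 17160 CPM. MIF ranged from 788 to 3722 CPM and the respiratory chain gene NDUFA4 from 61.7 to 1547 CPM. S100A4, the gene of highest rho, ranged from 2920 to 6871 CPM. GAPDH ranged from 4404 to 6783 CPM, PKM2 from 2501 to 3952 CPM and ENO1 from 947 to 1765 CPM. The rho values were not computed within such runs. With rich and poor cells taken within such runs the mesenchymal list stood at 0.24 and the adrenergic list at -0.56.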

How the data were processed

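The authors deposited a table of raw counts per gene and cell for 603 cells of the line. Per the submitters' processing notes the authors used Bowtie2 (version 2.1.0) and the build hg19. No source used here names the counting tool, the annotation or a cell filter, or says whether counts are molecules or reads. A row named unknown (2 counts) was left out, and 1537576 counts remained. The columns show no sample, so no test between samples was made. CPM was computed here from the deposited counts.

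The members and lists were chosen with earlier results of these data known. The text names every member, the 4 highest genes of the lists on other paralogs, branches and hypoxia genes with paralogs that complete a step, the 10 highest and 5 lowest genes by rho with the summed enzymes, and up to 4 genes at either end of a list by log2 ratio. INS-IGF2, MIF, NDUFA4, CHGA, S100A6 and S100A4 as compared between cell groups were chosen after their values were seen. Some genes these rules name are not reported here.

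For groups of cells, a list's counts in cells thinned to 1100 counts ranked the cells, ties were broken at random, and the full counts of the 186 highest and 186 lowest were summed. No hypoxia target reached the mean of 0.1 per thinned cell used for gene pairs, so their pairs were not computed. Ratios are of genes outside the ranked list, and calls use 1.5-fold among genes of at least 50 counts. Hypoxia target ranks tie at 0, so cells with and without a count after thinning were compared instead. Cells were sorted singly, no doublets were removed and no check for them was made. The procedure was also run on simulated cells with groups set far apart and ratios centred on unchanged genes. The ratios given here are not centred and the groups are less distinct, so that run does not measure their accuracy. Alternatives were equal weights per cell, each barcode set, no deepest cell, and other depths, thinnings, cuts and pseudocounts. The enzyme, mesenchymal and hypoxia target lists were also scored without their leading gene, and the G2/M and G1/S lists were not. Software was Python with numpy 2.4.6, pandas 2.3.3 and scipy 1.17.1.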

Additional observations from a re-analysis of the deposited data

How the results depend on the processing

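No paired analysis was possible because the columns show no sample and there is 1 group. Leaving out a replicate could not be done for the same reason. The levels and paralog shares depended least on the processing. The ALDOA share was 99.0% in barcode set 1 and 97.1% in set 2, and the LDHA share 65.4% and 59.2%. With rows joining several names left out, which removes GAPDH and the targets VEGFA, BNIP3 and NDRG1, the enzymes summed to 9661 CPM and the median of enzymes minus hypoxia targets was 5.52 on the log2 scale, where it was 4.41 as reported and 3.83 to 4.70 under the other settings.

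The ratios between groups of cells were less stable. The enzymes by G2/M stood at -0.10 in set 1 and 0.078 in set 2, by G1/S at -0.088 and 0.080, and at -0.042 by G1/S with cells of at least 1500 counts. Ranked by hypoxia targets the enzymes stood at -0.083 in set 1 and 0.093 in set 2, but over all cells 89 of the 186 upper cells of that ranking held no target count. Between cells with and without a target count they stood at 0.032 with another thinning, 0.028 with cells of at least 1500 counts and 0.061 without INS-IGF2 cells, and without GAPDH at 0.015 and 0.0070 in the last pair. The G2/M list there stood at 0.010 with another thinning, 0.0038 with 750 counts, -0.35 in set 1, -0.036 in set 2, -0.065 with cells of at least 1500 counts and 0.095 without INS-IGF2 cells, and the G1/S list at -0.085, 0.025 and -0.035 with another thinning, 750 counts and cells of at least 1500. The mean enzyme rho was 0.0041 in set 2 and 0.0086 with cells of at least 1500 counts. Between enzyme-rich and enzyme-poor cells the G1/S list changed sign with another thinning (-0.027), in set 2 (-0.091) and without INS-IGF2 cells (-0.021), and the G2/M list in set 2 (0.066), with cells of at least 1500 counts (0.0060) and scored without GAPDH (0.020), and it stood at -0.24 within runs of 20 columns and -0.16 without INS-IGF2 cells. The mesenchymal list kept its sign in every setting run, at 0.15 in set 2, 0.12 with a split at the median, 0.24 within runs of columns and 0.076 without INS-IGF2 cells. The adrenergic list kept its sign too, at -0.58 with another thinning, -0.28 in set 1, -0.34 with a split at the median and -0.063 without INS-IGF2 cells. Grouped by the mesenchymal list, the enzymes stood at 0.091 without INS-IGF2 cells. The LDHA share was higher in enzyme-rich cells by 10.6 percentage points with cells of at least 1500 counts and by 4.84 without INS-IGF2 cells, and by 16.6 as reported.

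Single genes changed sign in 6 cases: ENO1 by G1/S in set 1 (-0.064) and with cells of at least 1500 counts (-0.025), PGK1 by G2/M in set 2 (0.044), LDHA against the other enzymes in set 2 (-0.26), and DCN (0.15) and CHGA (0.88) by the enzymes without INS-IGF2 cells. The sign alone was compared, and these values carry no interval here. The cause was not tested. Runs of columns, INS-IGF2 cells and cells with any target count, with its settings, were alternatives chosen after seeing the data. Genes under 50 counts, 13 of the 35 members, are too thinly sampled for ratios between groups of cells.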
